A study of Caenorhabditis elegans with 2 samples.

Results

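When binding of eGFP-tagged GMEB-1 was mapped by ChIP-seq (immunoprecipitated chromatin, sequenced), 1882 of the top 3909 regions of replicate 2 overlapped none of the top 3909 of replicate 1. These regions, 48.1% of the top of replicate 2, are called replicate 2-only regions below. They were selected on the signal that the authors' caller gave each region in both replicates, so their ranks and their absence from the top of replicate 1 are descriptions and carry no test. The limit of 3909 is the length of the deposited optimal list of the irreproducible discovery rate (IDR) procedure. The other 2027 top regions of replicate 2 overlapped the top of replicate 1 by 1 bp or more, and are called shared regions. In the opposite direction, 1857 top regions of replicate 1 overlapped no top region of replicate 2.

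The material was whole L2 larvae of Caenorhabditis elegans, sexes pooled, of strain OP343. Its genotype is unc-119(ed3) III; wgIs343, where wgIs343 is an integrated transgene that carries the tagged gmeb-1, so both replicates share the unc-119 mutant allele and the transgene. The 2 replicates are labelled as biological replicates and form 1 group, with the same control listed for both, and no other genotype, stage or untagged strain was compared. All cells of the animal contributed to each sample, so binding in a few cells cannot be told apart from weak binding in many.

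In mammals, the GMEB proteins to which worm GMEB-1 is related bind glucocorticoid modulatory elements. They hold a SAND domain and contact DNA at short sequences with a CG dinucleotide. Most sequence-specific factors mapped in whole worms are found just upstream of gene starts. The worm's GATA factors, of which ELT-2 in the intestine is the best known, recognise sequences with the letters GATAA, and many genes of digestion, detoxification and fat metabolism carry such sequences upstream.

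Sequences at the summits of the replicate 2-only regions differed along the ranks of replicate 2, and sets of windows are shown as chosen examples. The first set below gives the 101 bp around the summit, on the plus strand of build ce11 (WBcel235, from RefSeq), for 7 of the strongest promoter regions, 4 of which had no counterpart at all in replicate 1. Capitals mark, on either strand, CGCG, the 6-mers ACGCGC or GAGCGC, and the GATA-type GATAAG or its shifted form TGATAA. The windows lie at chrV:5204322-5204422 for ttc-37, at chrIV:6321827-6321927 for Y73B6BL.29, at chrIV:874825-874925 for Y55F3BR.1, at chrIII:13256584-13256684 for F56A8.3, at chrV:8031314-8031414 for vars-1, at chrIII:7074123-7074223 for ZK418.5 and at chrIII:5499095-5499195 for R02F2.9.
ttc-37: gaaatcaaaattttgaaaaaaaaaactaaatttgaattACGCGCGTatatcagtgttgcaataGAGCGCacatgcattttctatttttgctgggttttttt
Y73B6BL.29: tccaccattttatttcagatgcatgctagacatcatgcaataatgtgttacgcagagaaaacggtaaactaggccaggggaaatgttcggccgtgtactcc
Y55F3BR.1: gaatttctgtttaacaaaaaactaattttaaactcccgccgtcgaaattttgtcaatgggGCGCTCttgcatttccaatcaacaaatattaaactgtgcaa
F56A8.3: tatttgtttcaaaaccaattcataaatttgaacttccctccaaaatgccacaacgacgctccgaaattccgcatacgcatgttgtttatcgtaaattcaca
vars-1: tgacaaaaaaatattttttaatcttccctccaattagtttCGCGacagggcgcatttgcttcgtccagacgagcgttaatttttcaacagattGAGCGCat
ZK418.5: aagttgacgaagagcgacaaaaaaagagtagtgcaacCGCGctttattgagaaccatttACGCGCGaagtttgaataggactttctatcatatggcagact
R02F2.9: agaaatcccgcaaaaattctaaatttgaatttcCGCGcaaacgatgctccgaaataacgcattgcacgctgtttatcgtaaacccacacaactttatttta

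The second set, shown because its regions hold GATAAG, gives 3 of the strongest such regions and then 4 in promoters of detoxification enzymes. Its windows lie at chrIII:6968433-6968533 for panl-2, at chrV:15085554-15085654 for C01G10.7, at chrII:12768467-12768567 for tiar-2, at chrV:10493311-10493411 for ugt-33, at chrV:3505882-3505982 for ugt-64, at chrV:7364187-7364287 for cyp-35A2 and at chrIII:7947270-7947370 for gsto-1. Capitals have the same meaning.
panl-2: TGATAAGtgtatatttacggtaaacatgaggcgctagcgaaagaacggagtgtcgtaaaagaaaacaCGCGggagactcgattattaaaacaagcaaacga
C01G10.7: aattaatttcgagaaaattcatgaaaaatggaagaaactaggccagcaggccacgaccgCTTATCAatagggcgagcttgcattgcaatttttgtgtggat
tiar-2: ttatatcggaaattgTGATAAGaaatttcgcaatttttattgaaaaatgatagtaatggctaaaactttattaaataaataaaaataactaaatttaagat
ugt-33: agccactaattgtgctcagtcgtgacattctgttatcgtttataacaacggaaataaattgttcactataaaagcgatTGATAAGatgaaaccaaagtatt
ugt-64: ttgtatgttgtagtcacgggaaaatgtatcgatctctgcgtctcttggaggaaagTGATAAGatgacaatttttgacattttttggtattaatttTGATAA
cyp-35A2: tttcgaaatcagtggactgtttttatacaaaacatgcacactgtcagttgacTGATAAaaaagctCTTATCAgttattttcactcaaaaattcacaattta
gsto-1: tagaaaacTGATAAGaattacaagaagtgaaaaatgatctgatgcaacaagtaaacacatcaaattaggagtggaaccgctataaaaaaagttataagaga

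In the first set, ttc-37, vars-1, ZK418.5 and R02F2.9 hold CGCG and Y55F3BR.1 holds GAGCGC, while the windows of Y73B6BL.29 and F56A8.3 hold none of the marked sequences. In the second set, panl-2 holds both GATAAG and CGCG, and the other 6 windows hold GATAAG without CGCG. These windows do not stand for the whole set, since 956 of the 1882 windows held neither GATAAG nor CGCG.

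The replicate 2-only regions were spread over the whole top of replicate 2 but were more frequent toward its lower end. They made up 111 of the first 500 ranks (22.2%), 293 of ranks 2001 to 2500 (58.6%) and 308 of the 409 ranks from 3501 to 3909 (75.3%). Their median rank was 2571.5, from 39 to 3909, against a median of 1363 for shared regions. Their deposited signal ran from 35.2 to 811, with a median of 49.5, against a median of 83.5 for shared regions. Each of the 1882 reached the highest deposited −log10 q of replicate 2 (4.17), which 7340 of its 30000 regions reached, so q does not order them.

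**Figure D1:**
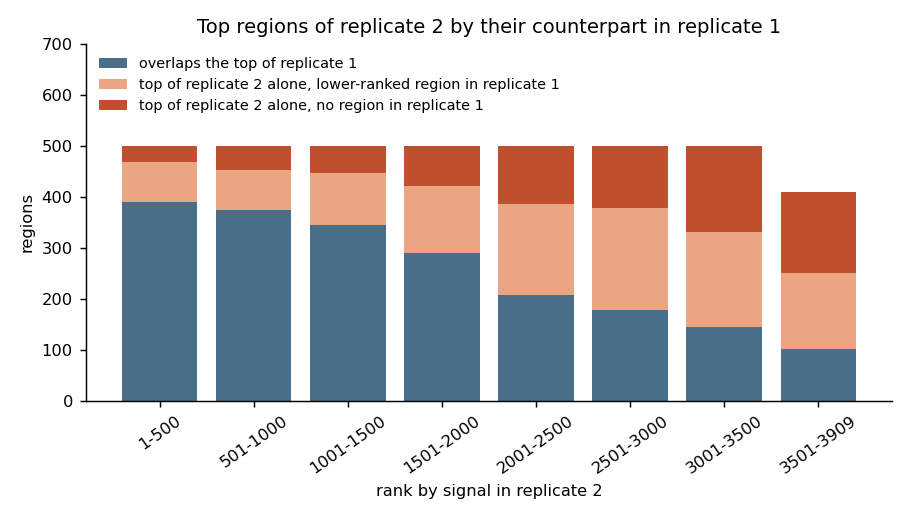
Bars give the number of regions (y axis) in successive bands of rank by signal in replicate 2 (x axis), split by the best counterpart in replicate 1. Shared regions fall from 389 in the first band to 101 in the last, which is shorter than the others, while regions with no counterpart rise from 32 to 158.

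Most of these regions overlapped a region of the relaxed list of replicate 1. That list includes background regions, so an overlap does not by itself show signal there. The list overlapped 1109 of the 1882, at ranks from 3920 to 28610 with a median of 9781. Of these, 145 had their best counterpart at ranks 3910 to 5000, 427 at ranks 5001 to 10000, 374 at ranks 10001 to 20000 and 163 beyond. The counterpart reached the highest −log10 q of replicate 1 in 159 of the 1109. Among the lowest 10000 regions of replicate 2 it did so in 340 of 2253, with a median rank of 14181. Among shared regions it did so in all 2027, with a median rank of 1136. The remaining 773 of the 1882 replicate 2-only regions (41.1%) overlapped no region of the relaxed list of replicate 1. Over all 30000 regions of replicate 2 the share was 62.1%, and over its lowest 10000 it was 77.5%. The 773 were 28.8% of the replicate 2-only regions in the first 500 ranks and 51.3% of those in the last band.

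The values just inside and just outside the limits differ little. The last 3 regions inside, at ranks 3907 to 3909 near C52B9.19, acbp-1 and F33H12.7, had signals of 35.26, 35.25 and 35.24. The next 3, near oac-50, kin-1 and dlg-1, had 35.20, 35.19 and 35.18. On the side of replicate 1, the counterpart of the region at pfd-5, a prefoldin subunit, ranked 3920, and those near smg-6 and Y105E8A.20 ranked 3923 and 3924. The counterparts of the nearest shared regions, at T07E3.4, dmd-6 and zhit-1, ranked 3909, 3907 and 3893. Regions such as pfd-5, at rank 209 in replicate 2 with a signal of 393.6, were thus assigned by a small step in the ranks of replicate 1.

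Other regions were far from any limit. The strongest replicate 2-only region, at chrV:5204188-5204555, had a signal of 811.0 and rank 39 in replicate 2, rank 43 in the list called on both replicates together, and no region in replicate 1. Its summit lay 103 bp upstream of ttc-37, a relative of a subunit of the Ski complex, which feeds RNA to the exosome. The region at Y73B6BL.29, at chrIV:6321712-6322042, ranked 69 with a signal of 674.3 and also had no counterpart, and its summit lay 52 bp upstream. ZK418.5, at rank 129, and R02F2.9, at rank 175, had none either, with summits 322 and 45 bp upstream. The fifth and sixth such regions lay upstream of efr-3 (rank 280) and prx-19 (rank 294), the latter a peroxisome import factor.

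The next strongest had weak counterparts. The region in the 5′ UTR of Y55F3BR.1 had a signal of 669.8 and rank 70 in replicate 2 and rank 3979 in replicate 1, and that upstream of F56A8.3 ranked 78 and 5550. The region at chrV:8031202-8031494, 47 bp upstream of vars-1, which encodes the valyl-tRNA synthetase, ranked 106 and 6239. The region at chrII:14441156-14441483, 86 bp upstream of smg-8, a gene of nonsense-mediated mRNA decay, ranked 117 and 12657. Farther apart still was a region whose summit lay 13 bp inside daf-15, the worm Raptor of TOR complex 1, at ranks 151 and 18985. The others of the 15 strongest promoter regions lay by T10E9.2, mrpl-47 (a mitochondrial ribosomal protein), exos-2 (an RNA exosome subunit), tbck-1, wht-3 (an ABC transporter), rft-2 (a riboflavin transporter) and lpd-3. They ranked 86 to 145 in replicate 2 and 4949 to 11589 in replicate 1. None of the 15 was on the X chromosome.

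Most replicate 2-only regions lay in promoters, taken to begin 1000 bp before and end 200 bp after the start of a protein-coding transcript. The summit was in a promoter in 1264 of 1882 regions (67.2%), against 64.1% of shared regions and 36.6% of all 30000 regions of replicate 2. Promoter shares fell along the ranks in both sets, from 94.6% to 54.9% in replicate 2-only regions and from 90.0% to 36.6% in shared regions. Within each of the 8 bands of rank the replicate 2-only share was the higher. With shared regions weighted to the bands of the replicate 2-only regions, their promoter share was 52.5%.

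By annotation class, 68.1% of replicate 2-only summits were intergenic, 19% intronic, 5.15% in a 5′ UTR, 1.91% in a coding exon, 2.23% in a 3′ UTR and 3.67% in a non-coding gene or pseudogene. Shared regions had 67.0%, 20.4%, 3.45%, 1.73%, 1.43% and 6.02% in the same order. The median distance to the nearest protein-coding start was 302 bp against 350 bp, and 77.2% and 77.3% of summits lay upstream of it. Divergent promoters, with starts on both strands, held 19.7% and 20.1% of summits. With ranks matched, the shared figure for divergent promoters was 10.4%, and the replicate 2-only share was the higher in 7 of the 8 bands.

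The top regions of replicate 1 alone were unlike either set. Their summits were in promoters in 36.9%, in divergent promoters in 2.75% and 989 bp from the nearest start at the median. Of them 8.35% overlapped the IDR list.

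The strongest regions outside promoters were few. In the first 1000 ranks, 217 of 237 replicate 2-only summits (91.6%) and 635 of 763 shared summits (83.2%) were in promoters. Of the 5 strongest replicate 2-only regions outside promoters, those in introns lay near slc-36.4 (rank 214, signal 387.3), Y75B8A.25 (rank 351) and set-18 (rank 391). Those between genes lay near H05C05.2 (rank 431) and casc-3 (rank 450). In that order, the summits of the 5 lay 685, 4933, 916, 1082 and 1186 bp from the nearest start. Y75B8A.25 had no counterpart in replicate 1, and those of the other 4 ranked from 4076 to 22044.

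By chromosome, V held 360 replicate 2-only summits, II 343, I 329, III 310, IV 295 and X 245. The X chromosome held 13% of them, 16.8% of shared summits and 14.2% of all summits of replicate 2. Within each of the 8 bands of rank the replicate 2-only share was the lower. None of the 237 replicate 2-only regions in the first 1000 ranks was on X, against 69 of 763 shared regions (9.04%). The strongest on X were at rank 1058, 158 bp upstream of atf-4, a bZIP factor gene, with a signal of 106.0 and no counterpart in replicate 1, and at rank 1059, 219 bp upstream of trap-2, a translocon-associated protein gene. From ranks 3501 to 3909 the share on X was 18.8% against 28.7%. Chromosome II went the other way, with 18.2% of replicate 2-only and 14.1% of shared summits, and the higher replicate 2-only share in each of the 8 bands.

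**Figure D2:**
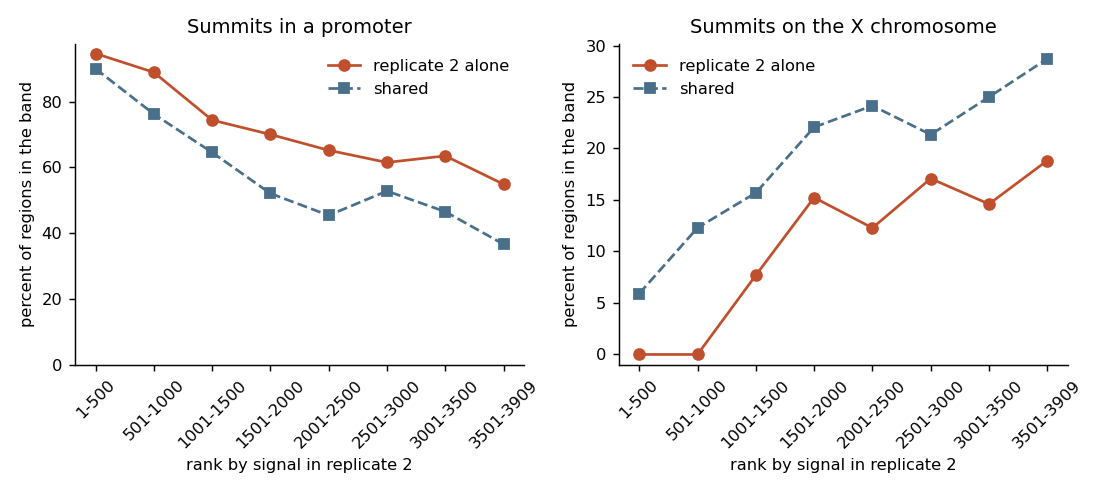
Points give the percent of regions in each band of rank in replicate 2 (x axis) whose summit was in a promoter (left) or on the X chromosome (right), for replicate 2-only regions (circles) and shared regions (squares). Promoter shares run from 94.6% down to 54.9% in replicate 2-only regions and lie above the shared ones in each band, and shares on X lie below them in each band, at 0 in the first pair of bands.

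Non-coding RNA genes were less frequent beside replicate 2-only than beside shared summits, though more frequent than beside all regions of replicate 2. A tRNA gene lay within 100 bp of 65 summits (3.45%), against 116 shared summits (5.72%). A snoRNA gene lay as near to 12 against 68 summits (0.638% and 3.35%), and a snRNA gene to 7 against 26 (0.372% and 1.28%). With ranks matched, the shares of shared regions were 7.94% for tRNA, 2.17% for snoRNA and 0.905% for snRNA genes. Over all 30000 regions of replicate 2 the shares were 1.16%, 0.463% and 0.167%. In the first 1000 ranks, none of 237 replicate 2-only regions and 9 of 763 shared regions (1.18%) were near a tRNA gene.

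The optimal IDR list held most replicate 2-only regions. It overlapped 1667 of the 1882 (88.6%) and 1999 of the 2027 shared regions (98.6%), or 93.8% of the top of replicate 2 together. Its intervals were the 3909 highest-ranked of the pooled list. That list was called on both replicates together, so presence in it is not independent of the signal in replicate 2. The 1864 replicate 2-only regions that overlapped it had a median pooled rank of 2720.5, and the median rank of all 1882 in replicate 2 was 2571.5. Replicate 2-only regions in the IDR list overlapped pooled regions at ranks 43 to 3908. Of the 215 outside it, 197 overlapped pooled regions at ranks 3911 to 27938 and 18 overlapped none. The share in the list was 100% through the first 1000 ranks of replicate 2, 84.0% at ranks 3001 to 3500 and 53.2% at ranks 3501 to 3909.

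Presence in the IDR list did not require a region in replicate 1. Of the 773 replicate 2-only regions with no counterpart there, 620 (80.2%) overlapped the IDR list, ttc-37 and Y73B6BL.29 among them, and of the 1109 with a counterpart 1047 (94.4%) did. The strongest outside the list lay near C09G1.2 on X (rank 1117), upstream of rps-7, a small-subunit ribosomal protein gene (rank 1855), and by miga-1 (rank 1992), and each of these 3 overlapped no pooled region.

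Replicate 2-only summits were in the promoters of 1644 of 19973 protein-coding genes (8.23%) and shared summits in those of 1702 (8.52%), with 56 genes in both sets. These shares are the background for the gene lists below. Of 37 lists, 23 had a larger share of genes with a replicate 2-only summit than all genes had. This is not particular to replicate 2-only summits. More genes had a replicate 2-only than a shared summit in 16 lists, fewer in 17 and as many in 4. Genes with a common promoter share a region, so the genes of a list are not independent, and a region can count in several lists. All counts are descriptions with no test. The counts of replicate 2-only and shared summits were also not matched for rank.

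Some groups of basic cell function were hit at least as often by replicate 2-only as by shared summits. DNA replication and cell division genes had 37 of 96 (38.5%) against 29 (30.2%). The strongest were pola-1, the catalytic subunit of DNA polymerase alpha (rank 284, signal 324.3), mcm-7 of the replicative helicase (rank 327, signal 293) and scc-1, the mitotic cohesin subunit (rank 341, signal 285). Their counterparts in replicate 1 ranked 4981, 26653 and 7029. Proteasome subunit genes had 14 of 33 (42.4%) against 10 (30.3%), led by rpn-5, which shares its region with scc-1, pas-5 (rank 438) and rpn-9 (rank 658). The latter pair had no counterpart in replicate 1. Aminoacyl-tRNA synthetase genes, which charge tRNAs, had 9 of 32 (28.1%) against 3 (9.38%), with vars-1, sars-2 (rank 251) and aars-2 (rank 682) the strongest. Mitochondrial ribosomal protein genes had 18 of 70 against 16, led by mrpl-47, mrpl-44 (rank 365) and mrpl-49 (rank 585).

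Other groups of that kind were mainly in the shared set. Cytosolic ribosomal protein genes had 12 of 82 (14.6%) against 60 (73.2%), and the strongest of the 12 were rpl-41.1, rpl-28 and rps-26 at ranks 549, 585 and 621. The region of rpl-28 is also that of mrpl-49. Respiratory chain and ATP synthase genes had 5 of 53 (9.43%) against 25 (47.2%), with ndus-8 of complex I (rank 969), sdhd-1 of complex II (rank 1520) and cox-6C of complex IV (rank 1860). Translation factor genes had 12 of 41 against 19, led by eef-1B.2 (rank 348), iff-1 (rank 610) and eif-6 (rank 945). The regions of iff-1 and eif-6 are also those of cdk-1 and the proteasome gene pbs-2. Vacuolar ATPase and autophagy genes had 5 of 45 against 15, with atg-2, unc-51 and atg-3 at ranks 2129 to 2601. Histone genes had 0 of 82 against 9.

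Nuclear pore and transport genes had 12 of 40 against 15, with the nucleoporin genes npp-22 (rank 200), npp-5 (rank 250) and npp-12 (rank 435). Splicing factor genes had 11 of 51 against 17, with prp-8 (rank 467), and rsp-5 and snr-3 by a common region (rank 837). Chaperone and heat shock genes had 14 of 67 against 21, with pfd-5, dnj-10 (rank 407) and dnj-28 (rank 533). Chromatin regulators had 12 of 105 against 28, with the histone methyltransferase gene set-2 (rank 317), the remodeller gene isw-1 (rank 366) and mes-6 of the Polycomb-like MES complex (rank 680). Small GTPase and membrane traffic genes had 19 of 136 against 32, with sec-12 (rank 300), vps-2 (rank 921) and aps-3 (rank 953). The region of aps-3 is also that of rpl-17.

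RNA polymerase and general transcription factor genes had 7 of 71 against 18, with rpac-19, taf-11.3 and taf-8 at ranks 741 to 1460. Ubiquitin conjugation and cullin ligase genes had 6 of 57 against 13, with uba-2, rbx-1 and rbx-2 at ranks 1093 to 2638. Small RNA pathway genes had 7 of 74 against 16, with rde-10, mut-2 and mut-7 at ranks 924 to 1713. Kinases and phosphatases named by class had 13 of 96 against 12, with the mitotic kinase genes air-2 (rank 556), cdk-1 (rank 610) and plk-1 (rank 1084). The region of cdk-1 is also that of iff-1. Tubulin, kinesin and dynein genes had 8 of 43 in each set, with dli-1, dnc-1 and tbg-1 at ranks 591 to 741. The region of tbg-1 is also that of rpac-19.

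Detoxification enzymes had many more replicate 2-only than shared summits. Cytochrome P450, UDP-glucuronosyltransferase (UGT) and glutathione S-transferase (GST) genes had 26 of 188 (13.8%) with a replicate 2-only summit and 4 (2.13%) with a shared summit. The 26 genes had 26 separate regions, and 19 of them had no counterpart in replicate 1. Among all replicate 2-only regions 41.1% had none, with 47.5% at ranks 3001 to 3500 and 51.3% at ranks 3501 to 3909. The 26 ranked low in the top of replicate 2, with a median of 3228. Whatever the gene, replicate 2-only regions made up 71.2% of ranks 3001 to 3500 and 75.3% of ranks 3501 to 3909. The counts of 26 and 4 were not matched for rank. The strongest of the 26 were ugt-20 (rank 978, signal 112.5), ugt-49 (rank 1365, signal 83.46) and gst-33 (rank 1469, signal 78.4). Ranks 3277 to 3873 held 13 of the 26, from cyp-33C9 to cyp-33E3, and 20 of the 26 overlapped the IDR list. Among all replicate 2-only regions 88.6% did, with 84.0% at ranks 3001 to 3500 and 53.2% at ranks 3501 to 3909. GATAAG lay within 50 bp of the summit in 7 of the 26, among them ugt-33, ugt-64, cyp-35A2 and gsto-1 shown above, and CGCG in 1, gst-43. GATAAG was in 27.5% of all replicate 2-only windows at ranks 3001 to 3500, where the median rank of these genes lies, so 7 of 26 is near the share at that rank. Nor was it particular to these enzymes. Among genes with a replicate 2-only summit, those with GATAAG were 7 of 18 F-box, MATH and BATH, 3 of 7 C-type lectin and 7 of 23 nuclear hormone receptor genes. They were 2 of 8 lipid metabolism genes and 1 of 10 genes of intestinal identity and function.

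Lipid metabolism genes had 8 of 71 (11.3%) against 5 (7.04%), led by the fatty acid elongase genes elo-1 (rank 1687) and elo-2 (rank 1929) and the desaturase gene fat-4 (rank 2012). Genes of intestinal identity and function had 10 of 66 (15.2%) against 7 (10.6%), led by the cathepsin B-like protease genes cpr-3 (rank 1283) and cpr-4 (rank 2005) and the intermediate filament gene ifp-1 (rank 1830). Nuclear hormone receptor genes had 23 of 274 (8.39%) against 18 (6.57%), near the background, with nhr-56, nhr-68 and nhr-105 at ranks 1243 to 1318. Signalling genes of the Wnt, TGF-beta, insulin and TOR pathways had 12 of 66 (18.2%) against 9 (13.6%). Their strongest were daf-15, daf-10 (rank 1543), which is known for its part in sensory cilia, and pop-1, the worm TCF factor of Wnt signalling (rank 1670).

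Large families of environmental and tissue-specific genes stayed under the background of 8.23%. Chemoreceptor genes had 12 of 1309 (0.917%) against 9 with a shared summit, led by srd-4 (rank 195), srr-10 (rank 307) and srh-89. These summits lay 442, 493 and 904 bp upstream and were also in the promoters of usip-1, clic-1 and F25E5.1, in that order. F-box, MATH and BATH genes had 18 of 428 (4.21%) against 13, led by fbxb-88, bath-42 and bath-5. Their summits were also in the promoters of tbck-1, prp-8 and btb-4, in that order. C-type lectin genes had 7 of 240 against 3, with clec-87 (rank 444), clec-104 and clec-150. The summits of clec-87 and clec-104 were also in the promoters of rsa-1 and ciao-1. Collagen genes had 6 of 175 against 3, with bli-6 (rank 542), col-71 and col-185. Those of bli-6 and col-71 were also in the promoters of hrpf-2 and Y49F6B.2. The list of cuticle-associated and ground-like genes had 7 of 202 against 3, led by bli-6, by dpy-26, which is known for dosage compensation, and by grl-26. Ion channel and receptor genes had 6 of 335 against 5, with lgc-52, lgc-25 and ocr-3. Homeobox, bHLH, T-box and GATA factor genes had 7 of 156 against 13, with ceh-92, atf-4 and zip-2, of which atf-4 and zip-2 are bZIP genes. The summit of ceh-92 lay 890 bp upstream and was also in the promoter of Y66D12A.7, and that of zip-2 in that of ceeh-1.

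Insulin-like and neuropeptide genes had 1 of 140 against 2, the 1 being nlp-4, and sperm protein genes 0 of 53 against 0. Germline genes had 5 of 99 against 9, with spe-46, mes-4 and him-10. Muscle genes had 3 of 40 against 3, with unc-45, act-2 and unc-112. Pan-neuronal genes had 2 of 39 against 5, with unc-51 and unc-33, and hypodermal and seam genes 1 of 27 against 1, with ajm-1. No region of replicate 2 lay within 1000 bp of gmeb-1, gmeb-2 or gmeb-3. At unc-119, the locus mutated in the strain, replicate 2 had 4 top regions, none of them replicate 2-only.

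**Figure D3:**
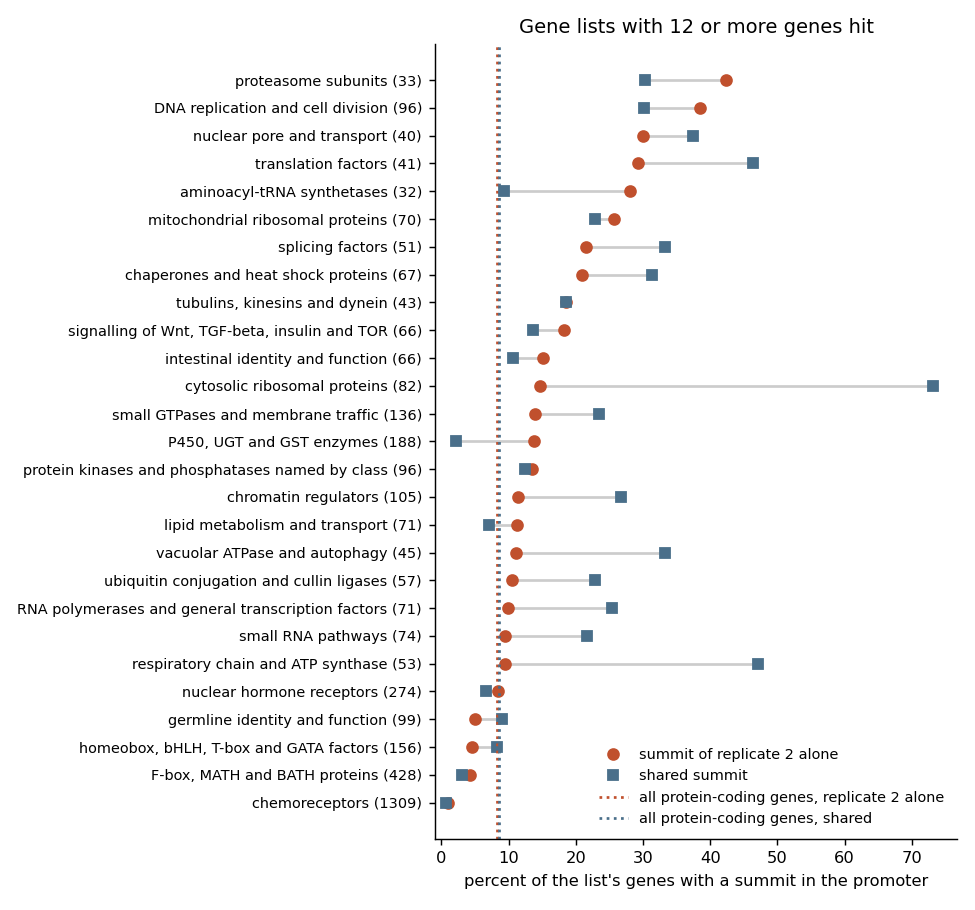
Each line is a gene list (number of genes in parentheses), and points give the percent of its genes with a replicate 2-only summit (circles) or a shared summit (squares) in the promoter, with dotted lines at 8.23% and 8.52% for all protein-coding genes. Lists with at least 12 genes hit in the 2 sets summed are shown, and cytosolic ribosomal protein genes lie far to the shared side while P450, UGT and GST genes lie on the replicate 2-only side.

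Sequence at the summits also differed among the replicate 2-only regions. Windows of 101 bp were searched on both strands for 6 sequences, namely the core ACGT, the 6-mer ACGCGC, the 6-mer GAGCGC, the 6-mer ACGCAG, the 6-mer AGAGAC and the 6-mer GAGAGA, and for 3 more, CGCG with the GATA-type GATAAG and its shifted form TGATAA, which were added after values had been seen. CGCG lies within ACGCGC, and GATAAG and TGATAA overlap where TGATAAG occurs. GATAAG was in 369 of the 1882 windows (19.6%), against 6.86% of shared windows, 6.19% of windows of the top of replicate 1 alone, 8.36% of all windows of replicate 2 and 3.86% of its lowest 10000. TGATAA was in 27.8% against 10.2%, 10.3%, 15.7% and 10.1% in the same order, and the longer TGATAAG in 14.2% against 4.24%, 3.18%, 5.65% and 2.09%. GATAAG or TGATAA was in 603 replicate 2-only windows (32.0%) and 255 shared windows (12.6%). Of the 1882 replicate 2-only windows, 322 held GATAAG without CGCG, 557 CGCG without GATAAG, 47 both and 956 neither. Of the 2027 shared windows the figures were 120, 839, 19 and 1049.

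The CG sequences were more frequent in shared windows when the sets were taken whole, which for ACGCGC and GAGCGC turned when ranks were matched. CGCG was in 32.1% of replicate 2-only and 42.3% of shared windows, against 14% of all windows of replicate 2, and with ranks matched the shared figure was also 32.1%. ACGCGC was in 11% against 13.5%, with 3.15% of all windows of replicate 2, and GAGCGC in 12% against 12.7%, with 3.38%. With ranks matched, the shared figures were 8.92% for ACGCGC and 8.94% for GAGCGC, and the replicate 2-only share was the higher in 6 and 7 of the 8 bands. In the first 1000 ranks, ACGCGC was in 28.3% against 21.5% and GAGCGC in 26.6% against 18.9%. ACGT was in 24.6% against 27.5% with 20.1% of all windows, ACGCAG in 10.8% against 16.9% with 4.89%, AGAGAC in 13.8% against 19.6% with 6.80% and GAGAGA in 18.4% against 24.9% with 9.82%. For the last 3, the replicate 2-only share was the lower within each of the 8 bands of rank.

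GATAAG and CGCG changed places along the ranks. In the first 500 ranks, 0 of 111 replicate 2-only windows held GATAAG and 77 (69.4%) held CGCG. At ranks 1501 to 2000 the figures were 18.6% and 37.6%, and at ranks 3001 to 3500 they were 27.5% and 21.1%. In shared regions GATAAG went from 1.80% to 14.9% between the first and the last band. GATAAG was more frequent in replicate 2-only than in shared windows in 7 of the 8 bands, the first being the exception, and shared regions weighted to the same bands held it in 10.3%. Over all windows of replicate 2, the share was highest at ranks 3001 to 4000, at 23.6%, was 23.3% at ranks 4001 to 5000, past the limit, and had fallen to 8.70% at ranks 10001 to 11000. In replicate 1, GATAAG was in 2.5% of windows in the first 1000 ranks and reached its highest share, 8.60%, at ranks 4001 to 5000. The sequences thus differed between the replicates over a wide range of ranks and not just at the limit.

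**Figure D4:**
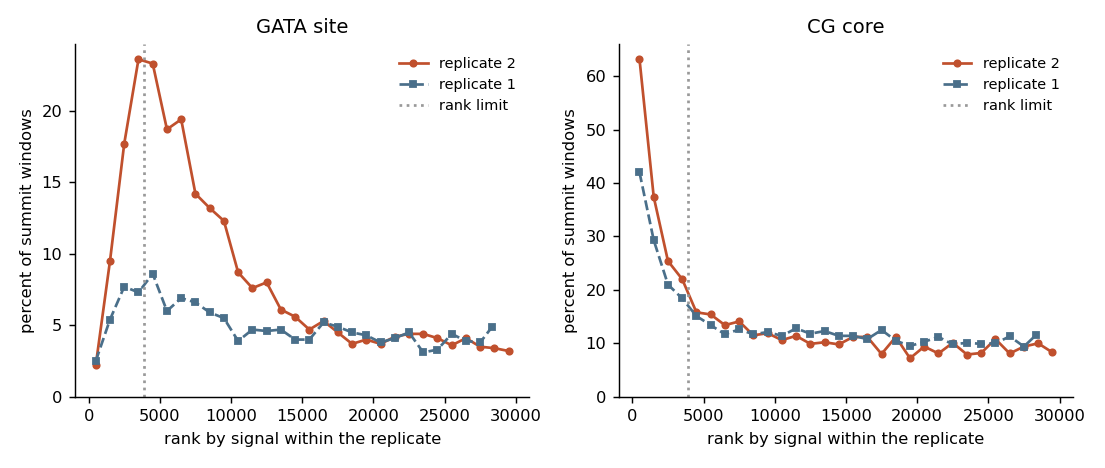
Points give the percent of 101 bp summit windows with the GATA site GATAAG (left) or the sequence CGCG, labelled as CG core (right), in bands of 1000 ranks of each replicate's own relaxed list, with the limit of 3909 as a dotted line. In replicate 2 the GATA site rises to 23.6% near the limit while in replicate 1 it stays at or under 8.60%, and the CG core falls from 63.2% and 42% in both.

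GATAAG lay close to the summits. In replicate 2-only regions there were 140 sites in the 25 bp before the summit and 111 in the 25 bp after it, or 7.44 and 5.90 per 100 regions. At 225 to 250 bp on either side there were 20 and 19, or 1.06 and 1.01 per 100 regions. In shared regions the central figures were 1.97 and 2.17 and the outer ones 1.33 and 1.38 per 100 regions.

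**Figure D5:**
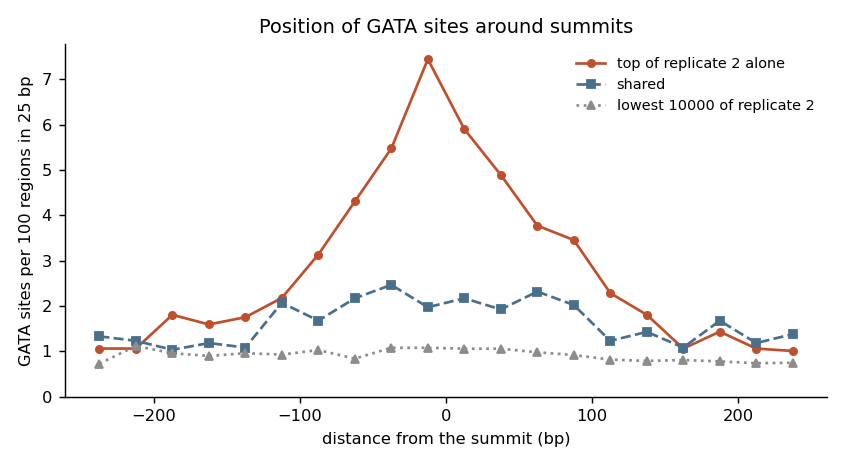
Lines give the number of GATAAG sites per 100 regions (y axis) in 25 bp steps from the summit (x axis) for replicate 2-only regions, shared regions and the 10000 lowest regions of replicate 2. Replicate 2-only regions reach 7.44 beside the summit and about the level of shared regions, 1.06 and 1.01, at the ends.

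Base composition moved with these sets. The mean GC content of the windows was 40.9% in replicate 2-only regions, 46.4% in shared regions and 33.5% in the lowest 10000 regions of replicate 2. Within classes of GC content, a split added after seeing the data, GATAAG was more frequent in replicate 2-only than in shared windows. Under 35% GC, GATAAG was in 31.9% of 423 replicate 2-only and 20.1% of 149 shared windows. From 40% to 45% it was in 18.7% of 443 and 9.45% of 434, and at 50% or more in 5.49% of 237 and 2.48% of 686. In the lowest 10000 regions of replicate 2 it was in 3.45%, 4.20% and 3.01% of windows in those classes, the last being above the shared figure.

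The 369 regions with GATAAG differed in place and in rank from the 1513 without. Their summits were in promoters in 55.3% against 70.1%, in divergent promoters in 7.05% against 22.7%, in introns in 26.8% against 17.1% and on X in 17.3% against 12%. At the median they lay 634 bp from the nearest start against 276 bp, and their median rank was 2970 against 2457. CGCG was in 12.7% against 36.8%. In replicate 1, 48.2% of them had no counterpart against 39.3%, while among those that had one the median rank was 9503 against 9807.5. The IDR list held 85.1% against 89.4%. The 139 shared regions with GATAAG had like places, with 48.2% in promoters, 5.04% in divergent promoters, 25.2% in introns and 16.5% on X. These splits were made on windows of the same regions, were not matched for rank and carry no test. In the first 1000 ranks, 5 of 237 replicate 2-only windows held GATAAG. At ranks 2501 to 3000, where the median rank with GATAAG lies, 61.5% of all replicate 2-only summits were in promoters. There 17.1% were on X and 20.8% of windows held CGCG.

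The strongest regions with GATAAG began at rank 554, 353 bp upstream of panl-2, a gene of the PAN deadenylation complex, with a signal of 187.9. Next came the region in the promoters of C01G10.7 and ahsa-1, the latter a relative of an HSP90 co-chaperone (rank 706, signal 150.4). The region at chrII:12768352-12768681 had rank 921 in replicate 2 and rank 17820 in replicate 1, and its summit was in the promoters of tiar-2, a TIA-1-like RNA-binding protein gene, and vps-2, of the ESCRT-III complex. In total, GATAAG regions were in the promoters of 231 genes.

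Regions with and without a counterpart in replicate 1 were then set side by side. The 773 without had summits in promoters in 69.6% against 65.5% of the 1109 with one, on X in 11.5% against 14.1% and within 100 bp of a tRNA gene in 2.46% against 4.15%. GATAAG was in 23% against 17.2% of windows, TGATAA in 33.5% against 23.8%, CGCG in 31.2% against 32.7%, and the mean GC content was 39.6% against 41.8%. Their median ranks in replicate 2 were 2754 and 2470, and these shares were not matched for rank. With 2 replicates of 1 group, a difference between replicates cannot be told apart from a difference in depth, in the animals or in the immunoprecipitation, and the part of each was not tested.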

How the data were processed

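GMEB-1 binding was mapped in 2 biological replicates of 1 group. Per the deposited readme, the relaxed lists were made by calling each replicate against a control, and the pooled and IDR lists use both replicates. The sources used here name no caller or aligner and state neither the IDR threshold nor read numbers, so depth is unknown and intervals that need it are left out. The signal in the deposited lists is the value from the authors' caller. Its maximum was 191 in replicate 1 and 1996 in replicate 2, and it served to rank regions within a list. The deposited −log10 q of each region was tied at its highest value for many regions and was only described.

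The ce11 lists were analysed with WBcel235 and Ensembl release 115, and no region ended beyond a chromosome. Regions were ranked by signal, and overlap of 1 bp counted. Repeated intervals were kept, and the 1882 chosen regions had 1882 distinct intervals. Positions are 1-based summits. Coding exon, 5′ UTR, 3′ UTR, intron and non-coding gene were assigned in that order. Lists of genes were matched by symbol pattern. The regions, the 37 gene lists and the 9 sequences were chosen with earlier results of these data known. Genes named are those of the 15 strongest promoter regions, the 5 strongest elsewhere, the 3 strongest of each list, the GMEB genes and unc-119, and regions beside the limits. Regions named for a missing counterpart, for GATAAG, for X or for absence from the IDR list were chosen after values were seen, and so were windows with GATAAG. No test over samples is possible for regions chosen by the difference between 2 replicates, and regions and genes are not replicates. The scripts were tested on simulated data. Python 3.11.15, numpy 2.4.6 and scipy 1.17.1 were used.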

Additional observations from a re-analysis of the deposited data

How the results depend on the processing

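No paired analysis was possible because there is 1 group. With the upper 1954 ranks of each replicate in place of 3909, the rule gave 852 regions in place of 1882, of which 80.8% were in promoters, 99.4% overlapped the IDR list, 23.6% had no region in replicate 1 and 7.16% were on X, and 1009 genes had such a summit. In those ranks GATAAG was in 7.51% of their windows and 3.90% of shared windows. Regions with no counterpart in the whole relaxed list of replicate 1 numbered 773, with 69.6% in promoters, 80.2% in the IDR list, 11.5% on X and 706 genes. Without replicate 1, the 3909 top regions of replicate 2 had 65.6% in promoters, 93.8% in the IDR list, 19.8% with no region in replicate 1, 15% on X and 3290 genes. When an overlap of at least 0.5 of the narrower width was required there were 2002 regions, of which 38.6% had no region in replicate 1. When summits within 200 bp counted as shared there were 1954, and with repeated intervals counted once 1891. Under these 3 alternatives the promoter share was 66.2% to 67.1%, the share in the IDR list 88.4% to 88.7% and the share on X 13% to 13.2%.

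A promoter of 500 and 100 bp held 56.8% of summits, and one of 2000 and 500 bp held 79.0%. With windows of 100 bp to either side, ACGT was in 41.1%, ACGCGC in 13.3%, GAGCGC in 13.8%, ACGCAG in 15.1%, AGAGAC in 19.7%, GAGAGA in 28.1%, CGCG in 41.0%, GATAAG in 28.7% and TGATAA in 41.6% of windows, and GATAAG in 13.4% of shared windows. Weighting shared regions to the rank bands of the others, added after seeing the data, moved their promoter share from 64.1% to 52.5%, their share on X from 16.8% to 21.8%, GATAAG from 6.86% to 10.3% and CGCG from 42.3% to 32.1%. The cause of these shifts was not tested.

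With 2 replicates and unknown depth, absence from the list of replicate 1 is not a measure of absent binding, and each relaxed list ends at its own lowest signal.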
